A study of Rattus norvegicus with 8 samples.

Results

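Myofibroblasts exposed to a direct current of 1 µA/cm2 were compared with untreated myofibroblasts (MFs) by RNA sequencing, with 2 libraries of each among the 8 libraries of the series. Libraries were assigned to groups by their labels. Both groups consisted of neonatal Wistar Kyoto rat cardiac fibroblasts (CFs) that had been turned into MFs by repeated passaging in low-serum medium, and the treated cells then received the current for 72 h in standard medium with 10% FBS. The medium of the untreated MFs during that time, and whether electrodes stood in their wells, are not given in the sources used here. The series also holds 2 libraries of CFs and 2 of MFs treated at 2 µA/cm2, which served to estimate the spread between replicates. They are called biological replicates, but nothing states whether they came from separate cultures or animals, so the p-values measure the spread between these libraries only.

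Myofibroblasts are the contractile, matrix-secreting cells that fibroblasts become after injury to the heart. They close the wound and then, if they persist, stiffen the muscle with collagen. Weak direct currents are studied because cells hold and respond to electrical gradients across their membranes and tissues. The question put to these libraries was how a low current changes the transcriptome of cells that have already become MFs.

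The deposited values were estimated counts for 21867 rat Ensembl gene IDs, with totals from 26473085 in MF replicate 2 to 30026696 in 1 µA replicate 2. At least 1 count was found for 15455 and 15490 genes in the 1 µA libraries and for 15269 and 15350 genes in the MF libraries. Replicates lay close together, with a median absolute log2 difference per gene of 0.15 between the 1 µA libraries and 0.12 between the MF libraries. The spread was wider in the other groups, at 0.20 for 2 µA and 0.26 for CF. The 2 libraries of a group still differed by more than sampling noise, with a chi-square per gene of 26.2 for 1 µA and 16.3 for MF, so each was kept as a sample of its own. No symbol could be paired with the Ensembl IDs, since 0 of them matched the RefSeq gene table used here. Cell type markers, pathways and the genes measured by qPCR in the study were therefore not analysed here, and the identity of the cells was not checked against markers.

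Between the 1 µA and MF libraries, 543 of 13849 genes tested (3.92%) differed in level. From MF to 1 µA, the levels of 228 genes (1.65%) rose and those of 315 genes (2.27%) fell. The current cannot be told apart from any difference in medium or electrodes, which are not given for the untreated MFs. A change was called in edgeR's quasi-likelihood test over all 8 libraries, at a Benjamini-Hochberg adjusted p under 0.05 together with a log2 fold change of at least 1 in either direction. In such bulk samples, a smaller share of one kind of cell and less RNA per cell cannot be told apart. The count rested on having both libraries of each group. It dropped to 47 and 9 genes without 1 µA replicate 1 or 2 and to 4 and 6 genes without MF replicate 1 or 2, where the remaining library was taken to vary like the other groups. It rose to 886 and 883 genes without CF replicate 1 or 2, and to 1164 genes with the 1 µA and MF libraries alone.

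**Figure D1:**
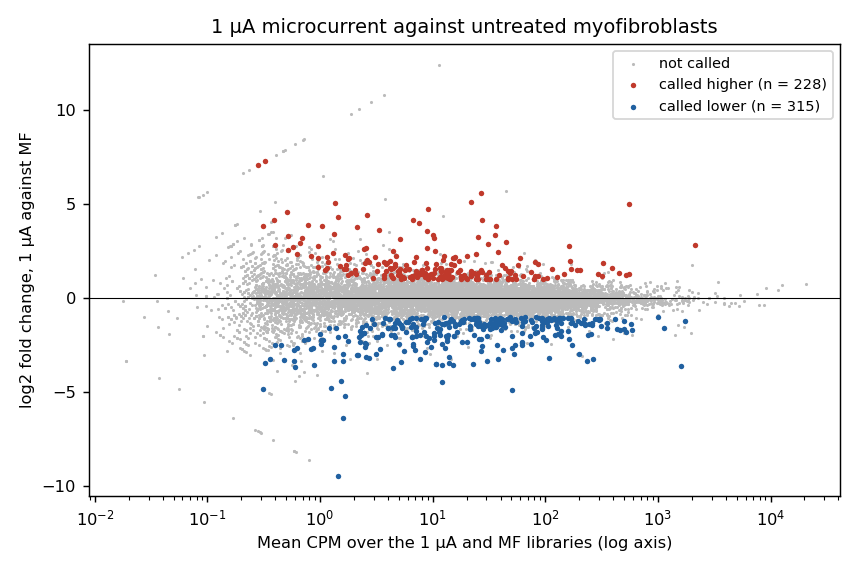
Each point is a gene, with its mean level over the 1 µA and MF libraries in counts per 1000000 (CPM, log axis) against its log2 fold change, 1 µA against MF. The 228 genes called higher (red) and the 315 called lower (blue) spread over the range of levels, and genes at 0 in all 4 libraries are not drawn.

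Most changes were moderate. Among the genes that rose, the median log2 fold change was 1.49, with quartiles of 1.20 and 2.14, and among those that fell it was -1.59, with quartiles of -2.26 and -1.26. Over all genes tested the median was 0, with quartiles of -0.27 and 0.27, a centre that TMM scaling itself sets, so a shift of the whole transcriptome could not be seen. Of the 228 genes, 115 rose by less than 1.5 on the log2 scale, 49 by 1.5 to 2, 35 by 2 to 3 and 29 by 3 or more. Of the 315 genes, 140, 68, 71 and 36 fell within the same bounds. The median standard error was 0.26 for the genes that rose and 0.27 for those that fell, against 0.18 over all genes tested.

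Size and certainty did not always go together. A fitted log2 fold change of at least 1 was seen for 802 genes upward and 889 downward, and 1148 of these did not pass the test. Such genes had a median level of 1.04 CPM and a median standard error of 0.59. In the opposite case, 425 genes passed the adjusted p but changed by less than 2-fold, which brings the genes past the adjusted p alone to 968, with 434 higher and 534 lower. The groups separated for many more genes than were called. In 67.3% of all genes tested the 1 µA and MF libraries did not overlap in CPM, as was true of all 228 and all 315 called genes. With 2 libraries a side, many genes fail to overlap by chance alone, and the called genes were picked on these same libraries.

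The called genes were found at every level of expression, and more of them fell than rose among the more abundant genes, a balance that was not tested. The 13849 genes were ranked by their mean CPM over the 1 µA and MF libraries and parted into 4 classes of equal size. In the lowest class, up to 5.51 CPM, 76 genes rose and 80 fell, which together make 4.5% of its genes. The next class, up to 21.8 CPM, held 84 that rose and 80 that fell (4.74%). From there to 57.9 CPM 40 rose and 66 fell (3.06%), and in the highest class 28 rose and 89 fell (3.38%). The lowest class was also the least precise, with a median standard error of 0.44 against 0.14 in the highest. Among the 100 genes with the highest mean CPM, the least of them at 999.9 CPM, 1 rose and 4 fell, and the median absolute log2 fold change was 0.29.

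The genes that fell took a larger part of the RNA than those that rose in the MFs, and a smaller part after microcurrent. Together the 315 genes held 3.70% and 3.59% of all estimated counts in the MF libraries, and 1.35% and 1.15% in the 1 µA libraries. The 228 genes held 0.458% and 0.453% in the MF libraries, and 1.58% and 1.66% in the 1 µA libraries. These shares describe genes picked for differing between the same libraries. The 10 most abundant genes of each library, whatever their change, took 10.7% and 10.6% of the counts at 1 µA and 8.87% and 8.19% in MF.

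The called genes were also compared library by library, as a description, since they were picked on these libraries. For the genes that rose, the median log2 difference was 1.38 and 1.32 between 1 µA replicate 1 and the MF libraries, and 1.59 and 1.55 for 1 µA replicate 2. For the genes that fell, the corresponding medians were -1.52 and -1.48 for replicate 1 and -1.71 and -1.65 for replicate 2. Replicate 2 at 1 µA thus stood farther from the MFs than replicate 1 in both lists, by 0.17 in the median gene that rose and 0.18 in the median gene that fell. The MF libraries differed by 0.02 and 0.03 on the same lists. Over all genes tested, the median difference of the 4 pairs of libraries lay within 0.004 of 0.

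The same lists were then read in the libraries that had no part in choosing their direction. The median level of the 228 genes was 14.3 and 16.9 CPM at 1 µA, and 4.73 and 5.06 CPM in the MF libraries. It was 14.6 and 14.4 CPM at 2 µA, and 10.8 and 9.97 CPM in CFs. The CF libraries therefore lay above the MFs and below both microcurrent groups. The median of the 315 genes was 10.4 and 8.19 CPM at 1 µA and 30.4 and 29.0 CPM in the MF libraries. At 2 µA it was 8.54 and 10.0 CPM, and in CFs 10.2 and 13.2 CPM. On these genes the CF and microcurrent libraries overlapped, and all 6 lay below the MFs. The genes were picked for an extreme level in the MF libraries, which the other groups share as their point of comparison, so these medians are given without a test.

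**Figure D2:**
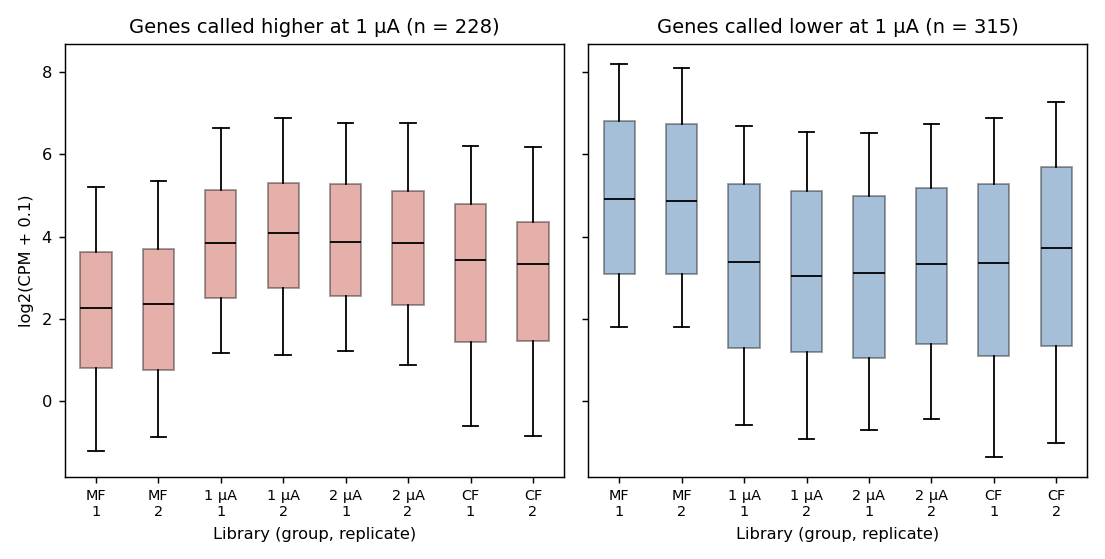
Levels in log2(CPM + 0.1) of the 228 genes called higher and the 315 called lower at 1 µA, in each of the 8 libraries. Boxes span the quartiles over genes with the median as a line, and whiskers reach the 10th and 90th percentiles. The MF libraries lie lowest in the first panel and highest in the second.

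The genes with the strongest evidence in each direction, by the smallest p among called genes that were listed in both deposited count tables, are described by their IDs. ENSRNOG00000040287 was abundant and had the smallest p of those that rose. Its level was 3887 and 3637 CPM at 1 µA, 563 and 490 CPM in MF, 3705 and 2897 CPM at 2 µA, and 199.7 and 199.3 CPM in CF. Every microcurrent library lay above every MF and CF library, and the CFs were the lowest. The 1 µA mean of 3762 ± 177 CPM (SD, n = 2) against 527 ± 51.3 CPM (SD, n = 2) in MF gave a log2 fold change of 2.84 with a standard error of 0.17, a 7.14-fold rise (adjusted p = 0.00229, edgeR). It was higher in 2 of 2 libraries, as were all 228 genes that rose and 33.7% of all genes tested. The call was lost without MF replicate 1 or 2 (adjusted p = 0.0663 and 0.0625, edgeR), at log2 fold changes of 2.94 and 2.74.

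ENSRNOG00000020030 rose from a low level. It stood at 51.8 and 52.5 CPM at 1 µA and at 3.07 and 2.86 CPM in MF. The 2 µA libraries had 54.4 and 29.5 CPM and the CF libraries 7.63 and 7.07 CPM. The 1 µA libraries were nearly equal, the 2 µA libraries were not, and neither MF nor CF overlapped with them. From a mean of 2.96 ± 0.146 CPM (SD, n = 2) in MF to 52.2 ± 0.503 CPM (SD, n = 2) at 1 µA, the log2 fold change was 4.14 with a standard error of 0.30, which is 17.6-fold (adjusted p = 0.00432, edgeR). Both libraries were higher, as in all 228 genes that rose. Without MF replicate 1 or 2 the gene was not called (adjusted p = 0.113 and 0.0913, edgeR), at log2 fold changes of 4.19 and 4.09.

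ENSRNOG00000001963 gave the smallest p of the whole comparison. Its level was 12.1 and 11.7 CPM at 1 µA and 90.1 and 95.1 CPM in MF. At 2 µA it was 13.1 and 12.8 CPM, and in CF 0.742 and 1.08 CPM. The microcurrent libraries lay between the MFs and the CFs without overlap. The mean fell from 92.6 ± 3.56 CPM (SD, n = 2) to 11.9 ± 0.290 CPM (SD, n = 2), a log2 fold change of -2.96 with a standard error of 0.14 (adjusted p = 0.00168, edgeR). The remaining level at 1 µA rested on 360 and 354 estimated counts, against 28 and 33 in CF.

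ENSRNOG00000001369 fell further and was also highest in MF and lowest in CF. It was found at 2.02 and 1.75 CPM at 1 µA and at 23.7 and 20.6 CPM in MF. The 2 µA libraries had 1.54 and 1.49 CPM and the CF libraries 0.424 and 0.393 CPM. Both 1 µA libraries were below the MFs and above the CFs. The means of 1.88 ± 0.188 CPM (SD, n = 2) at 1 µA and 22.2 ± 2.18 CPM (SD, n = 2) in MF gave a log2 fold change of -3.55 with a standard error of 0.18 (adjusted p = 0.00168, edgeR). At the low end the CF values stood for 16 and 12 estimated counts.

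**Figure D3:**
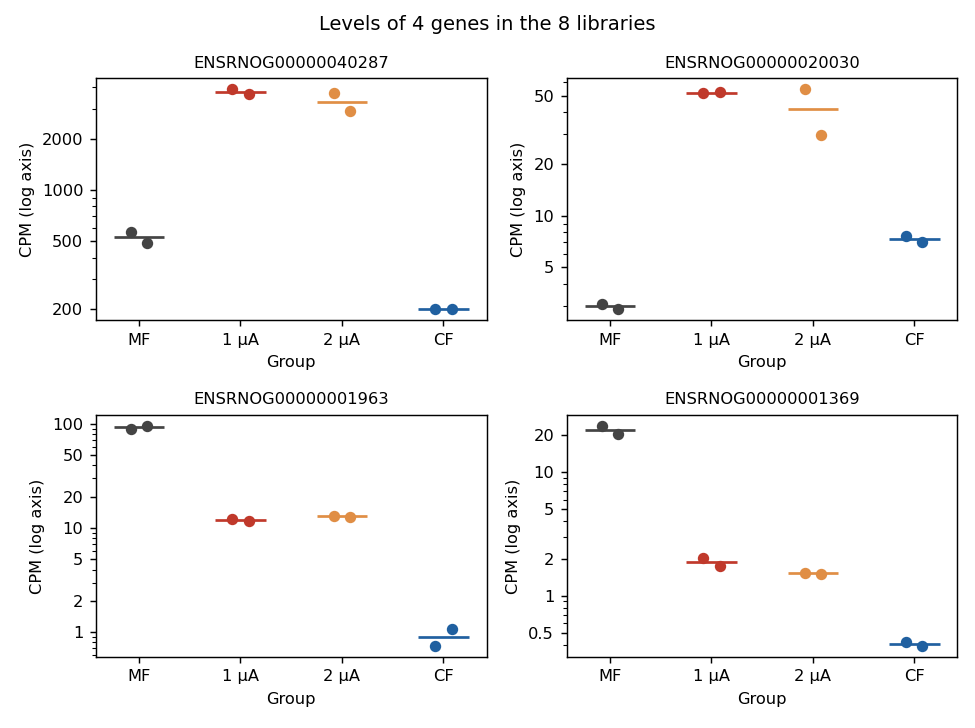
CPM (log axis) of ENSRNOG00000040287, ENSRNOG00000020030, ENSRNOG00000001963 and ENSRNOG00000001369 in untreated MFs, at 1 µA, at 2 µA and in CFs. Points are libraries and bars are means of 2. The 1 µA points lie far from the MF points in each panel, and the CF points lie lowest except for ENSRNOG00000020030.

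Between 2 µA and 1 µA, the log2 difference of these genes was -0.19 ± 0.16 (SE) for ENSRNOG00000040287, -0.31 ± 0.25 (SE) for ENSRNOG00000020030, 0.12 ± 0.14 (SE) for ENSRNOG00000001963 and -0.31 ± 0.19 (SE) for ENSRNOG00000001369. None of these passed edgeR's test (adjusted p = 1 for each). Of all 543 genes, 0 were called between the current densities by edgeR, and 10 had an unadjusted p under 0.05. The share of all genes tested with such a p is not given here, so nothing is read from the 10. Over all 13849 genes tested 1 was called (0.00722%), so the 0 says nothing particular about the 543 genes. DESeq2 was not run on this contrast.

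The second deposited table, a matrix of whole-number counts for 13341 gene IDs, gave a check on the counting. It holds 207 of the 228 genes that rose and 274 of the 315 that fell. In it, all 207 were higher and all 274 were lower at 1 µA than in MF. The test on the matrix called 162 of the 207 (78.3%) and 238 of the 274 (86.9%) again, and a log2 fold change of at least 1 was found for 189 and 269. Over the matrix as a whole, 506 of 13339 genes (3.79%) were called, 212 higher and 294 lower. The share called was 3.86% among its 11877 tested IDs that both tables list and 3.21% among the 1462 that it alone lists. The median log2 fold change there was 1.505 for the genes that rose and -1.56 for those that fell. Both tables count the same libraries, so their likeness says nothing about variation between cultures. Over the 11719 genes tested in both, the log2 fold changes correlated with a Pearson r of 0.88 across genes, and the median absolute difference between them was 0.03.

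**Figure D4:**
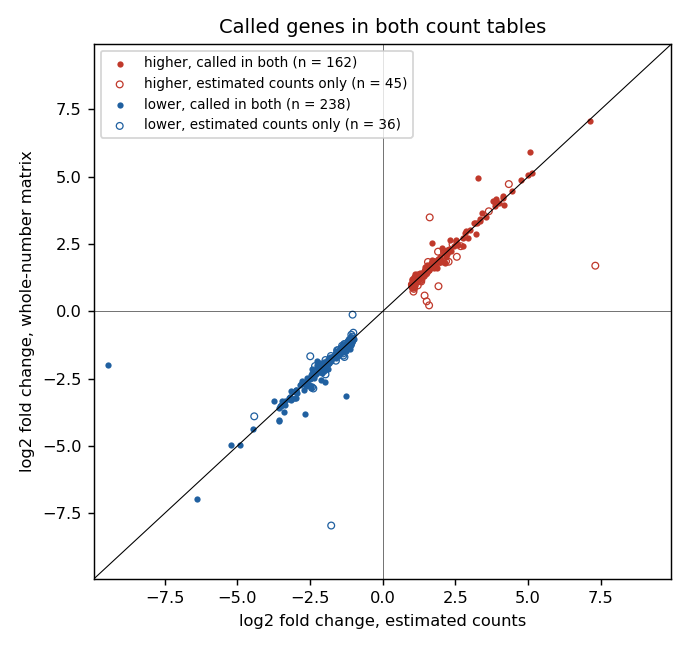
Log2 fold change, 1 µA against MF, of the called genes present in both tables, from the estimated counts (horizontal axis) and the whole-number matrix (vertical axis). Filled points are called in both and open points in the estimated counts only, and the line marks equal values. The 207 red and 274 blue points keep their direction, and a few lie far from the line.

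The matrix listed ENSRNOG00000040287 at 845 and 826 CPM at 1 µA and at 125 and 96.0 CPM in MF, well under the estimated counts. The log2 fold change of 2.92 with a standard error of 0.19 nevertheless differed little from that in the estimated counts (adjusted p = 0.00165, edgeR). For ENSRNOG00000020030 the matrix gave 50.2 and 49.8 CPM at 1 µA and 2.91 and 2.17 CPM in MF, a log2 fold change of 4.29 ± 0.31 (SE). It gave 9.98 and 8.76 CPM against 76.1 and 77.1 CPM for ENSRNOG00000001963, a log2 fold change of -3.03 ± 0.13 (SE). ENSRNOG00000001369 stood at 2.20 and 2.04 CPM against 27.3 and 23.8 CPM, a log2 fold change of -3.59 ± 0.19 (SE).

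Few of the called genes were switched from absent to present or the reverse. Only 2 of the 228 genes had 0 estimated counts in both MF libraries, with 34 and 39 counts summed over the 1 µA libraries. Among the 315 genes, 1 had 0 in both 1 µA libraries and 154 counts summed over MF. Of these 3 genes, which are all listed in the matrix, 2 were called there as well and all had a fold change of at least 2. A 0 in at least 1 of the 4 libraries occurred in 8 called genes. The 6 of them that the matrix lists had 9 values estimated as 0, of which 3 reached 10 or more in the matrix.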

How the data were processed

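RNA of 8 libraries was sequenced as paired reads. Estimated counts were deposited by gene, for which the authors had aligned reads to rn6 transcripts with salmon and summarised them with tximeta. They also deposited a normalised signal, in which those counts are divided by DESeq2 factors that vary by gene and library, and variance stabilised values (not used here). How the deposited matrix of whole-number counts was made is not given in the sources used here, and per the labels reads were trimmed with fastp and aligned with STAR. The submitters' processing notes name rn6 and DESeq2 1.28.1.

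Estimated counts were rounded and tested with edgeR 4.0.16 (limma 3.58.1, R 4.3.3) after filterByExpr and TMM scaling, with 1 coefficient per group, robust dispersions and 4 residual degrees of freedom. The biological coefficient of variation was 18.4%. CPM are counts per 1000000 after TMM scaling, and the standard error is the absolute log2 fold change over the square root of F. Spread between libraries used log2 CPM with a prior count of 2. Before the main run, the fit was tried on simulated counts with means and dispersions taken from a fit to these libraries. That trial does not check the model against the libraries.

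The alternatives were DESeq2 1.42.0, RLE and upper quartile scaling, other filters and thresholds, fewer groups, transcript length offsets from the deposited signal, the matrix, a replicate block and leaving out each library. Leaving out genes at 0 was added after seeing the data. Members and gene lists were chosen with earlier results of these data known. The lists and the rule for named genes needed symbols, so its fallback was used, which takes the 2 genes that rose and the 2 that fell with the smallest p among called genes in both tables.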

Additional observations from a re-analysis of the deposited data

Results flagged for a closer look

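Some gene IDs of the whole-number matrix are absent from the estimated counts, and they were looked at because they lie outside the main measurement. Of 1462 such IDs tested, 47 (3.21%) were called between 1 µA and MF by edgeR, 22 higher and 25 lower, and 298 had an unadjusted p under 0.05. The share called was 3.86% among the IDs found in both tables. The 47 called IDs had a median of 174.5 counts per library, against 469.8 for all shared genes tested, called or not. These sets are unlike, and the part of depth in the difference between the shares called was not tested.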

How the results depend on the processing

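The direction of the genes that rose and fell was the same in every alternative that tested them. In all 228 and all 315 the 1 µA and MF libraries did not overlap in CPM, so most alternatives could hardly reverse it. Other thresholds reuse the same fit and could not reverse it at all. The count of calls was not the same, and the cause was not tested unless the setting itself shows it. The alternatives gave the following numbers of genes called, with those higher and lower. DESeq2 called 942 (428 and 514), with 2956 adjusted p left as NA. With only 1 µA and MF in the fit there were 1164 (526 and 638). An adjusted p below 0.05 alone gave 968 (434 and 534), and one below 0.01 with the fold threshold gave 44 (14 and 30). The replicate block gave 139 higher genes of 379, and 130 of the 228 genes that rose and 225 of the 315 that fell were kept. The replicate numbers were not taken as a pairing, since deviations of same-numbered libraries correlated at 0.01 between 1 µA and MF and from -0.17 to 0.24 over the 6 pairs of groups. Leaving out 1 library gave 4 to 886 genes, 0 to 384 higher and 4 to 503 lower. The 0 arose without MF replicate 1, where 2077 genes of either direction had an unadjusted p under 0.05, and DESeq2 was not run on that subset. The lowest counts came where 1 µA or MF was left with 1 library, which gives fewer samples to the test. Over the 20 alternatives, ENSRNOG00000001963 and ENSRNOG00000001369 stayed called (highest adjusted p = 0.0396 and 0.0443). ENSRNOG00000040287 and ENSRNOG00000020030 kept log2 fold changes of 2.74 to 2.94 and 4.09 to 4.29. They were not called without MF replicate 1 (adjusted p = 0.0663 and 0.113) or 2 (adjusted p = 0.0625 and 0.0913). The median standard error was 0.44 in the lowest of the 4 classes by level and 0.14 in the highest, and the part of depth in this was not tested.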

Other observations

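The estimated counts and the matrix gave different levels for some genes. Of 11719 genes tested in both tables, 403 (3.44%) had mean CPM over the 1 µA and MF libraries that differed more than 4-fold, 290 with the higher level in the estimated counts and 113 with the lower. Among the 481 called genes tested in both, 17 (3.53%) did so, 14 of them higher in the estimated counts. Of these 17, 6 were called in the same direction in the matrix. Over all called genes tested in both, 162 of the 207 that rose (78.3%) and 238 of the 274 that fell (86.9%) were. ENSRNOG00000040287 is among the 17 by its levels in both tables. The reason for the differing levels was not tested.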
